A study of Mus musculus with 223 samples.

Results

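Sp8, Sp9, Etv1, Tshz1, Tshz2, Pax6, Gsx2 and Th are 8 genes known from interneurons (INs) of the olfactory bulb, and they were followed here in Htr3a-GFP+ cells of the mouse cortex, each sequenced alone. They were taken as listed, by symbol, and all 8 were found among the 43629 genes counted. The cells came from transgenic mice of both sexes on a C57BL/6 background in which Htr3a regulatory sequences drive GFP, so a cell was selected by the reporter and not by its own Htr3a level. Cortices and white matter of several embryos or pups were pooled at each age and GFP+ cells were sorted. Each age is therefore 1 sample, cells are not replicates, no test was made and every interval below covers counting error only. There were 82 cells at embryonic day 18 (E18), which carry no type, and the authors' own types divided the later ages into 22 type 1, 31 type 2 and 13 type 3 INs at postnatal day 2 (P2) and 34, 19 and 22 at postnatal day 5 (P5). The authors drew the types from these same counts, so a difference between types in a gene is a description of the types.

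Most olfactory bulb INs are born in the dorsal part of the lateral ganglionic eminence (LGE) and its postnatal successor, the subventricular zone, and reach the bulb by long migration. SP8 and SP9 are zinc finger factors needed for these neurons, Gsx2 marks the progenitors of the dorsal LGE, and PAX6, ETV1 and TSHZ1 act in later steps or in some subtypes. Th encodes tyrosine hydroxylase, the enzyme that limits dopamine synthesis, and is found in the dopaminergic cells around the glomeruli. Several of the genes are used elsewhere too, Sp8 in the caudal ganglionic eminence (CGE) and Pax6 in cortical progenitors and glia.

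Depth by mapped read pairs was alike in most groups, but both type 3 groups had lower total counts on genes. Mapped read pairs per cell ranged from 3707601 to 15840130, and total counts on genes from 1596087 to 11692823. Type 3 INs at P2 were the shallowest by mapped pairs, with a median of 6483871 mapped pairs and 1437 genes above 10 RPM. The median total count on genes was 2802948 in type 3 at P2 and 2620272 in type 3 at P5. In the other groups it was from 4974305 to 5614669. RPM is the number of read pairs of a gene per 1000000 mapped read pairs of the cell, and 10 RPM, the level used in the study's methods, served as the threshold for expression. The sample names also hold 4 prefixes of no stated meaning, which are taken as library sets A to D. Set A holds all P2 cells and no others, so P2 and set A cannot be told apart, while E18 and P5 share sets B to D. Gad1 or Gad2, the enzymes that make GABA, was above 10 RPM in 77 of 82 E18 cells. The lowest share of a postnatal type was 11 of 13, in type 3 at P2. Of the astrocyte genes Gfap, Aqp4, Aldoc and Aldh1l1, at least 1 was above 10 RPM in 3 of the 19 P5 cells of type 2, in 1 of the 34 of type 1 and in no other cell. Type 2 levels of Etv1 and Pax6 at P5 are given with and without those 3 cells.

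Sp8 and Sp9 are close relatives. Their upstream windows are shown because both genes were above 10 RPM in 27 of 34 type 1 cells at P5. In the RefSeq promoter windows (build GRCm38.p6, the 250 bases before a start site), the window of Sp9 and that of the middle of 3 start sites of Sp8 share a run of 15 bases, printed in capitals. The Sp8 window lies at chr12:118846983-118847232 on the plus strand, inside the first intron of the longer gene model. The Sp9 window lies at chr2:73271676-73271925 on the plus strand, and its last base is the first base of the annotated gene.
Sp8: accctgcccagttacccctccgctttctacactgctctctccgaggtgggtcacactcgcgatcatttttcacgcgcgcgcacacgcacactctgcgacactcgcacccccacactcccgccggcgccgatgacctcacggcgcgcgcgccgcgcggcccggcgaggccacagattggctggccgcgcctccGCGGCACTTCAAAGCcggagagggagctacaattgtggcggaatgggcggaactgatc
Sp9: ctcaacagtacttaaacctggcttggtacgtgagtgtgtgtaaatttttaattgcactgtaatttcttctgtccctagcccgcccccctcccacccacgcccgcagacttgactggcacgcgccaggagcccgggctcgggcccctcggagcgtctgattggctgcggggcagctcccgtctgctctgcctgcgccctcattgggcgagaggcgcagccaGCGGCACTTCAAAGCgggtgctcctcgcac
The run begins at position -58 from the Sp8 start and at -30 from the Sp9 start. On either strand it was present in 2 of 32851 windows of the same length, those of Sp8 and Sp9. A shorter shared run of 9 bases, gattggctg, was held by 624 of the windows. The runs were found after the windows had been read, and a match is a description of the letters and not of a binding site.

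Among 4 short motifs searched on both strands in the 11 windows of 7 of the genes, the GC box GGGCGG bound by SP and KLF factors was in 5 windows and in 32.7% of all windows. The ETS core GGAAGT was in 2 windows and in 19.7% of all. The MEIS core TGACAG was in 2 windows and in 15.9% of all, and the homeodomain core TAATTA was in 1 window and in 4.84% of all. The counts do not say which start site a cell used.

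Sp8 (ENSMUSG00000048562, chr12:118846329-118852576 in GRCm38) had the highest pooled level of the 8 in every group, also per kilobase of exon. Its pooled level, the summed read pairs of a group over its summed mapped read pairs, was 202.03 RPM at E18 (95% interval 201.04 to 203.02). At P2 it was 880 RPM in type 1, 580 in type 2 and 360 in type 3 INs. At P5 it was 2328 RPM in type 1 (2323 to 2333), 676 in type 2 and 229 in type 3. Levels per cell ran from 0.974 to 7102 RPM in type 1 INs at P5, with a median of 2450 RPM. In type 2 INs at P5 they ran from 0.432 to 3171 RPM with a median of 299.5, and in type 3 from 0.124 to 1630 RPM with a median of 29.4. The ranges of all groups overlapped, and the shift was in where most cells lay. Sp8 was above 10 RPM in 32 of 34 cells of type 1 at P5 (94.1%, 80.3 to 99.3%). The counts were 15 of 19 for type 2 and 16 of 22 for type 3. At E18 it was above 10 RPM in 20 of 82 cells (24.4%, 15.6 to 35.1%), and the median of those 20 cells was 579 RPM while the median over all E18 cells was 0.112 RPM. Of the 20, 19 were over 100 RPM, and 2 further cells lay between 1 and 10 RPM. The level of type 3 at P2 came almost wholly from 1 cell at 3371 RPM, which held 90.4% of the read pairs, and was 38.4 RPM without it.

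Sp9 (ENSMUSG00000068859, chr2:73271925-73284706), which works with Sp8 in the LGE and is also known from the medial ganglionic eminence (MGE), had lower levels. Its pooled level was 41.03 RPM at E18, 43.5, 17.7 and 7.56 RPM in types 1, 2 and 3 at P2, and 103.3, 63.8 and 18.4 RPM in types 1, 2 and 3 at P5. In type 1 INs at P5 it ran from 0 to 571 RPM with a median of 58.3 RPM, and 29 of 34 cells (85.3%, 68.9 to 95.05%) were above 10 RPM. In type 2 at P5 the median was 1.52 RPM and 5 of 19 cells were above 10 RPM, and in type 3 the median was 0 and 4 of 22 were above. A single type 2 cell at 632 RPM held 61.8% of that group's Sp9 read pairs at P5, and without it the level was 26.04 RPM. Without the highest cell of each group the level was 86.1 RPM in type 1 and 3.83 in type 3 at P5, and 26.7, 11.1 and 0.0135 RPM in types 1, 2 and 3 at P2. At E18, Sp9 was above 10 RPM in 32 of 82 cells (39.02%, 28.4 to 50.4%), about as many as the 30 with Tshz1, and its highest value was 803 RPM. The Sp9 exons share 270 bases with those of Cir1 on the opposite strand, a gene at 18.8 RPM over all cells, and the strand setting of the counting is not stated, so reads there cannot be told apart.

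**Figure D1:**
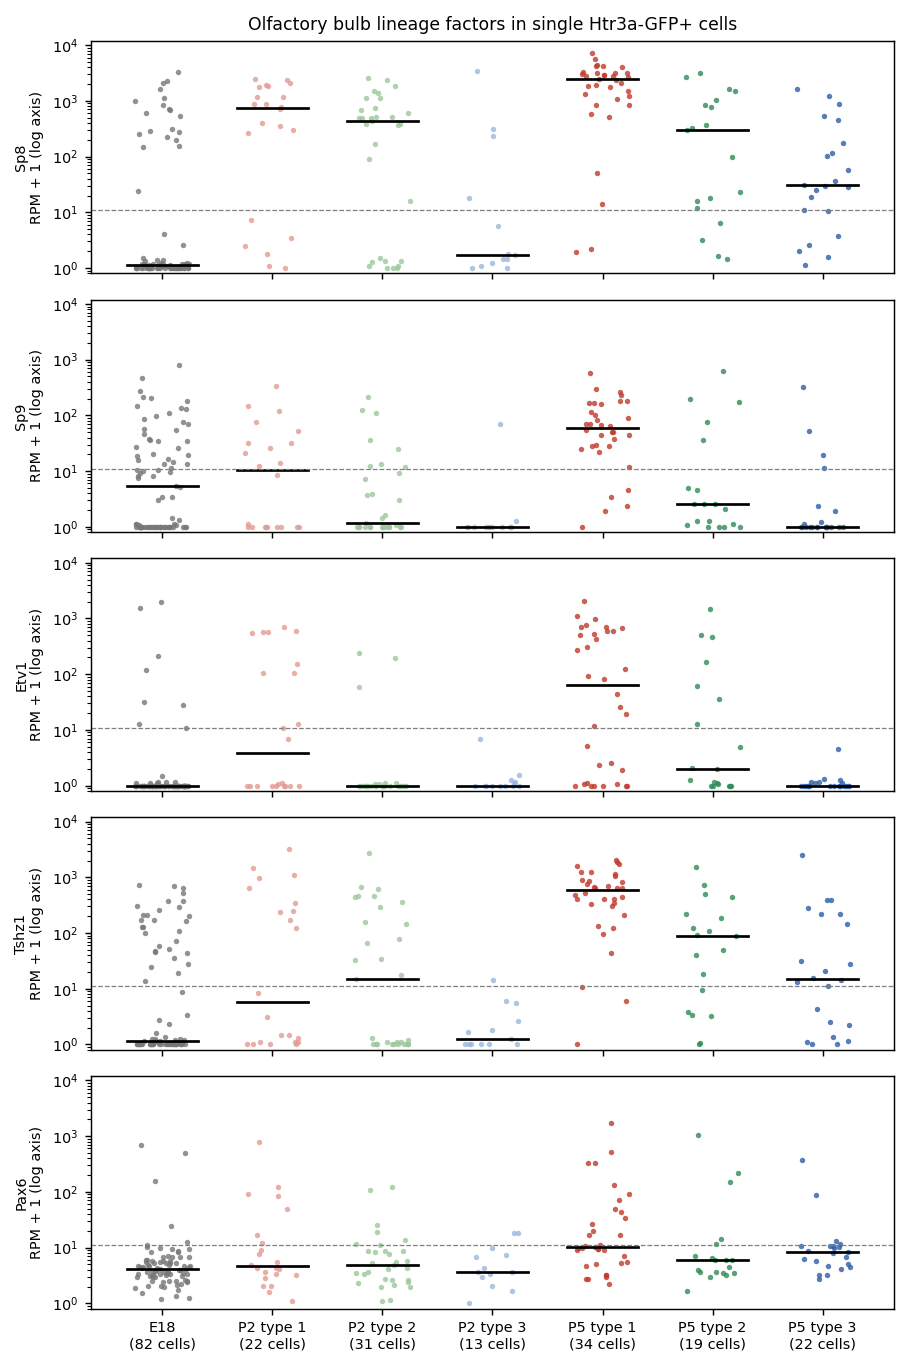
RPM + 1 on a log axis for Sp8, Sp9, Etv1, Tshz1 and Pax6 in each cell of E18 and of types 1, 2 and 3 at P2 and P5. Points are cells, black lines are medians and the dashed line is 10 RPM. The medians of type 1 at P5 are 2450 RPM for Sp8, 58.3 for Sp9, 62.8 for Etv1, 585 for Tshz1 and 9.15 for Pax6, each the highest of the 7 groups, and cells of different groups overlap in every panel.

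Etv1 (ENSMUSG00000004151, chr12:38779380-38870484), an ETS factor also called ER81, was nearly absent from type 3. It was at 0.588 RPM in type 3 at P2 and 0.259 RPM at P5, and no type 3 cell was above 10 RPM (0 of 13, which allows up to 23.1%, and 0 of 22, up to 13.6%). In type 1 it was at 161.6 RPM at P2 and 306 RPM at P5 (304 to 308). It was above 10 RPM in 9 of 22 type 1 cells at P2 (40.9%, 20.7 to 63.6%) and 21 of 34 at P5 (61.8%, 43.6 to 77.8%), and the median of those 21 cells was 514 RPM. Type 1 at P5 was thus split, with 28 of 34 cells holding at least 1 read pair and values from 0 to 2049 RPM. In type 2, Etv1 was at 16.6 RPM at P2 and 134.6 RPM at P5, with 3 of 31 and 7 of 19 cells above 10 RPM. The P2 value was 8.72 RPM without the highest cell, which held 49.2% of the read pairs. The P5 value was 64.9 RPM without the highest cell (1476 RPM), a cell that also had Gfap at 139.4 RPM, and it was 73.9 RPM without the 3 cells with astrocyte genes. At E18, 7 of 82 cells were above 10 RPM, and the highest, at 1938 RPM, held 57.2% of the Etv1 read pairs of that age.

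Tshz1 (ENSMUSG00000046982), a zinc finger factor needed for the migration of bulb INs into their layers, was above 10 RPM in at least 10 cells of every group but type 3 at P2, where 1 of 13 was. Its pooled level was 79.6 RPM at E18, 387, 216.5 and 2.10 RPM in types 1, 2 and 3 at P2, and 686, 265 and 172.3 RPM in types 1, 2 and 3 at P5. At P5 the cells above 10 RPM were 31 of 34 in type 1 (91.2%, 76.3 to 98.1%), 13 of 19 in type 2 and 14 of 22 in type 3. The median per cell was 585 RPM in type 1, 88.9 in type 2 and 13.8 in type 3, and the highest P5 value, 2543 RPM, was that of a type 3 cell. At P2 the shares of type 1 and type 2 were close, 10 of 22 and 16 of 31, with medians of 4.84 and 14.1 RPM. The P2 levels rested on a few cells in both types. In type 1, 1 cell at 3209 RPM held 36.4% of the read pairs, and in type 2, 1 cell at 2684 RPM held 41%. Without these cells the levels were 258 and 132.1 RPM. At P5 the level was 148.5 RPM in type 2 and 85.3 in type 3 without the highest cell of each, which held 48.8% and 52.3% of the read pairs.

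Pax6 (ENSMUSG00000027168, chr2:105668900-105697364), a paired box factor, was counted at a low level in nearly every cell. At least 1 Pax6 read pair was counted in all but 1 cell of the data set, and the median of cells at or below 10 RPM was 3.19 RPM. In all, 446 genes had a read pair in all or all but 1 cell, and 64 of them were above 10 RPM in at most 20% of the cells, as Pax6 was (44 cells, 19.7%). A read pair of Pax6 therefore did not set cells apart. Above 10 RPM were 5 of 82 cells at E18, 7 of 22, 7 of 31 and 2 of 13 in types 1, 2 and 3 at P2, and 14 of 34 (41.2%, 24.6 to 59.3%), 5 of 19 and 4 of 22 at P5. Of the 44 cells, 16 lay between 10 and 20 RPM, near the threshold. The pooled level at P5 was 97.1 RPM in type 1, 84.6 in type 2 and 24.8 in type 3, and medians were 9.15, 4.87 and 7.21 RPM. Without the highest cell of each group it was 60.7, 28.3 and 9.12 RPM. The type 2 level came mainly from 1 cell at 1057 RPM, in which Aldoc was at 6320 RPM, Slc1a3 at 6257, Gfap at 740 and Gad1 at 14.9. Without the 3 type 2 cells with astrocyte genes it was 20.3 RPM. The highest type 1 cell at P5, at 1698 RPM, had Gfap and Aldoc at 0, Sp8 at 4051 RPM and Meis2 at 501 RPM.

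The other 3 genes were rare or at 0. Tshz2 (ENSMUSG00000047907, chr2:169633013-170071816), a relative of Tshz1, stayed at or below 4.94 RPM in every group, and the cells above 10 RPM were 1 at E18, 5 at P2 and 3 at P5, the highest at 109.8 RPM. Gsx2 (ENSMUSG00000035946, chr5:75075601-75077893) was above 10 RPM in 1 cell, a type 1 cell at P2 with 242 RPM and all Gsx2 read pairs of that group. That cell had Sp8 at 350 RPM, Tshz1 at 342, Sp9 at 13.2 and Gad1 at 1187, while Mki67, a gene of dividing cells, was at 0. No Gsx2 read pair was counted in the 82 cells at E18 or the 75 at P5, which allows up to 3.66% and 4.00% of cells. Th (ENSMUSG00000000214, chr7:142892752-142931128) had 2 read pairs in 1 E18 cell and none in any postnatal cell. Of the other genes of a list of 8 for the dopamine phenotype, Slc6a3, which encodes the dopamine transporter, Gch1, Pitx3, Drd2 and Dbh were at 0 in every postnatal group. Ddc of the same list was at 0.881 RPM in type 1 and 1.65 in the other types at P2, and at 0.676 and 1.38 at P5. Nr4a2, a nuclear receptor of dopaminergic cells that other neurons also use, was above 10 RPM in 5 of 22 cells of type 1 at P2 and 12 of 34 at P5. Slc18a2, the vesicular monoamine transporter, was lower in type 1 than in the other types at both ages, by a log2 fold of -2.04 at P2 and -1.76 at P5, while Nr4a2 was at -2.24 and 1.46.

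Per kilobase of merged exons the order of the members in type 1 at P5 was Sp8 (511 read pairs per kilobase per 1000000 mapped), Tshz1 (117.2), Etv1 (23.01), Sp9 (20.5) and Pax6 (8.31). At E18 it was Sp8 (44.3), Tshz1 (13.6), Sp9 (8.13), Etv1 (3.66) and Pax6 (1.76). Exon lengths come from a later annotation of the same build. Etv1 and Sp9, neighbours in this order, overlapped widely over cells and changed places between the groups.

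The question of which members set type 1 apart was put by comparing pooled RPM of type 1 with that of types 2 and 3 together at each age. At P5, 4 of the 8 were at least 2-fold higher in type 1, namely Sp8, Sp9, Etv1 and Tshz1, against 23.6% of the 9675 genes tested, and none was 2-fold lower, against 23.7%. At P2, 5 of 8 were at least 2-fold higher, namely Sp9, Etv1, Tshz1, Pax6 and Gsx2, and none was lower. Gsx2 was outside the genes tested, since 1 cell held it, which leaves 4 of the 6 members tested, against 19.4% of 8400 genes higher and 31.9% lower. A gene was tested where over 5% of the cells of the age exceeded 10 RPM, which 5 members passed at P5 and 6 at P2. The log2 folds, with 1 RPM added to both sides, were 2.34 for Sp8, 1.28 for Sp9, 2.12 for Etv1, 1.63 for Tshz1 and 0.79 for Pax6 at P5. At P2 they were 0.72, 1.43, 3.52, 1.18 and 2.23 in the same order. The median log2 fold of all genes tested was 0.04 at P5 and -0.25 at P2. Part of this came from low type 3 levels. Against type 2 alone, Sp9 at P5 (103.3 and 63.8 RPM) and Tshz1 at P2 (387 and 216.5 RPM) were less than 2-fold higher in type 1. The other members called at each age were at least 2-fold above type 2 as well. Sp8, at 533 RPM in the other types at P2, was thus shared between types 1 and 2 at P2 and stood apart in type 1 at P5.

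Single cells moved the folds in both directions. Leaving out, for each member apart, its highest type 1 cell left 4 members 2-fold higher at P5 but 1, Etv1, at P2, where Sp9 was at 0.75, Tshz1 at 0.59, Pax6 at 0.86 and Gsx2 at -0.0795. Leaving out the highest cell of the other types instead gave 6 members at both ages, with Sp9 at 1.97, Tshz1 at 1.90 and Pax6 at 2.65 at P2. Tshz2 was among them at both ages, though at only 3.70 RPM in type 1 at P2 and 1.88 at P5, where it was outside the genes tested. Gsx2, held by 1 cell, was among them at P2. At P5 the Pax6 fold was 0.12 without its highest type 1 cell and 1.83 without that of types 2 and 3. Within library sets at P5, the folds of Sp8 were 1.53, 2.42 and 2.42 in sets B, C and D, those of Sp9 2.19, 1.88 and 1.26, and those of Etv1 4.04, 6.76 and 2.30. Tshz1 was at -0.0413 in set B, where the other types are 4 cells and 1 of them had 1507 RPM, and at 1.87 and 2.37 in sets C and D. Pax6 was at 4.82, -0.34 and 0.20, so its direction differed between sets. Without the 3 type 2 cells with astrocyte genes the Pax6 fold was 2.05 and that of Etv1 was 3.10.

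The other genes of the olfactory bulb and dorsal LGE list were read beside the members. Of 26 genes, 19 passed the filter at P5, where 14 were at least 2-fold higher in type 1 and 1 lower, against 23.6% and 23.7% of all genes. At P2, 19 passed, and 10 were higher and 5 lower, against 19.4% and 31.9%, so the lower count is near the background. The median log2 fold of those that passed was 1.89 at P5 and 1.27 at P2. The largest folds at P5 were those of Foxp2 (5.35), Pbx3 (3.24) and Sall1 (3.07). Those at P2 were Prokr2 (7.21), Foxp2 (6.40) and, in the other direction, Calb1 (-5.66), which encodes a calcium-binding protein of some bulb INs and was at 0.0181 RPM in type 1 and 50.4 RPM in the other types. Sall3 (5.36) came next. Prokr2, the receptor through which PROK2 guides new neurons to the bulb, was at 209.3 RPM in type 1 and 0.420 RPM in the other types at P2, and at 184.6 and 63.6 RPM at P5. Of the 8 CGE genes, 7 were at least 2-fold lower in type 1 at P5 and 6 at P2, and none was higher. Vip, Reln and Maf had the 3 largest differences at both ages, at -5.52, -3.56 and -3.12 at P5 and -3.23, -3.93 and -3.67 at P2. The types were drawn from these genes too, so the counts are not independent of how the types were found.

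From P2 to P5, type 1 INs differed by log2 1.40 in Sp8, 1.23 in Sp9, 0.92 in Etv1, 0.82 in Tshz1 and 0.81 in Pax6, all higher at P5. Of the 6 members tested, 2 were at least 2-fold higher, against 32.6% of the 8989 genes tested, a share near the background. That count rested on single cells. Without the highest P2 cell of each gene the differences were 1.54, 1.91, 1.22, 1.41 and 2.18 in the same order, all over 2-fold, and without the highest P5 cell they were 1.34, 0.97, 0.71, 0.75 and 0.14. In type 2 the P2 to P5 differences were 0.22, 1.80, 2.95, 0.29 and 2.67, and in type 3 they were -0.65, 1.18, -0.33, 5.81 and 1.98. Several of these directions rested on single cells. Without the highest P5 cell, type 2 Sp8 and Tshz1 were at 546 and 148.5 RPM, below 580 and 216.5 at P2. Type 3 Sp8 at P2 was 38.4 RPM without its highest cell, below 229 at P5. Type 3 Sp9 at P5 was 3.83 RPM without its own, below 7.56 at P2. Without the 3 type 2 cells with astrocyte genes, P5 Pax6 was at 20.33 RPM and Etv1 at 73.9, against 12.4 and 16.6 at P2. The share of cells above 10 RPM went from 16 of 22 to 32 of 34 for Sp8, from 11 of 22 to 29 of 34 for Sp9, from 9 of 22 to 21 of 34 for Etv1 and from 10 of 22 to 31 of 34 for Tshz1. Gsx2 went from 1 cell to none. Between P2 and P5 the ages differ in library set as well, and the parts of the 2 cannot be told apart. By the study's methods, the P5 tissue was also dissected in another solution and dissociated cooler and for longer than at E18 and P2. Neither the comparison with P2 nor that with E18 can be told apart from this difference in handling. Compared with E18 cells, type 1 INs at P5 had all 5 members tested at least 2-fold higher, against 13.5% of 9808 genes. The log2 differences were 3.52 for Sp8, 3.09 for Tshz1, 2.63 for Etv1, 2.19 for Pax6 and 1.31 for Sp9. Without the highest E18 cell of each they were 3.76, 3.29, 3.80, 2.94 and 1.69 in that order of genes, so the place of Etv1 rested on 1 E18 cell. Higher levels than at E18 were not particular to type 1. Against the same E18 cells, type 2 at P5 differed by 1.74 for Sp8, 1.72 for Tshz1, 1.45 for Etv1, 1.99 for Pax6 and 0.63 for Sp9. Without the highest type 2 cell of each these were 1.43, 0.89, 0.41, 0.45 and -0.64. Without the 3 type 2 cells with astrocyte genes, Pax6 was at 20.33 RPM and Etv1 at 73.9, against 20.55 and 48.6 at E18. Type 3 at P5 differed by 0.18, 1.10, -5.30, 0.26 and -1.11 in the same order. Without the highest type 3 cell of each, Sp8 was at 177.8 RPM, Tshz1 at 85.3 and Pax6 at 9.12, against 202.03, 79.6 and 20.55 at E18. Etv1 and Sp9 stayed lower than at E18. E18 cells are a mixture with no type, so the comparison sets 1 type against all cells of the earlier age.

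Counting members per cell showed how the genes were combined. In type 1 at P5, 31 of 34 cells (91.2%, 76.3 to 98.1%) had at least 3 of the 8 above 10 RPM and 20 had exactly 4. In type 1 at P2, 11 of 22 had at least 3 (50%, 28.2 to 71.8%). The counts were 8 of 19 for type 2 and 4 of 22 for type 3 at P5, 8 of 31 for type 2 at P2, 0 of 13 for type 3 at P2 (which allows up to 23.1%), and 8 of 82 at E18 (9.76%, 4.31 to 18.3%). No E18 cell had 4. The share of type 3 at P5 moved with the threshold, the scale and the library set. Counting members above 1 RPM it was 81.8%, against 100% in type 1 and 84.2% in type 2, and above 50 RPM it was 4.55%, against 79.4% and 21.1%. It was 63.6% with RPM taken relative to the total count on genes, and its 4 cells were 1 of 2 in set B, 3 of 3 in set C and 0 of 17 in set D. At E18 the cells with 3 were 2 of 48 in set B, 4 of 9 in set C and 2 of 25 in set D. In type 1 at P5 they were 10 of 11, 11 of 11 and 10 of 12. The most frequent combination in type 1 at P5 was Sp8, Sp9, Etv1 and Tshz1 with no other member, in 11 cells, followed by Sp8, Sp9, Tshz1 and Pax6 in 6. All 4 of Sp8, Sp9, Etv1 and Tshz1 were above 10 RPM in 16 of 34 cells of type 1 at P5, 2 of 22 at P2, 2 of 19 cells of type 2 at P5 and 0 of 82 cells at E18, which allows up to 3.66%. In type 3 at P5 the most frequent combination was Sp8 with Tshz1 alone, in 9 of 22 cells. Cells of type 1 at P2 with at least 3 members and those with fewer had medians of 9756389 and 10031988 mapped pairs.

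**Figure D2:**
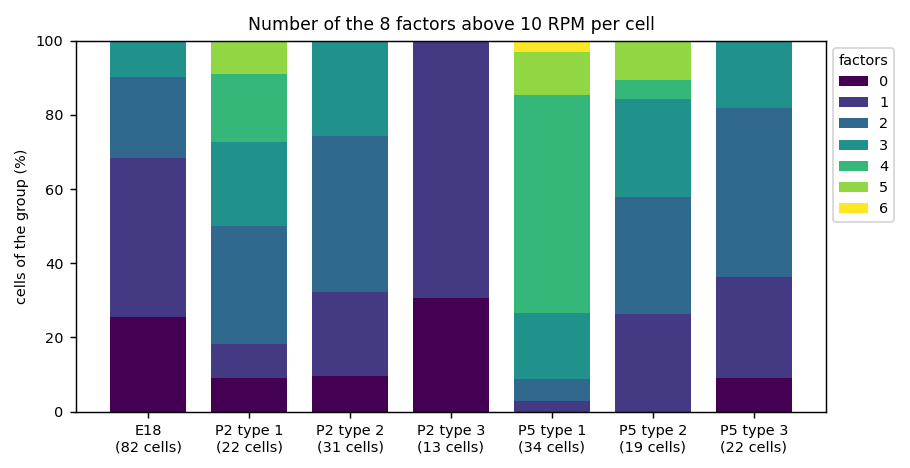
Share of the cells of each group (%) by the number of the 8 factors above 10 RPM in the cell, from 0 to 6. Type 1 at P5 is the group in which most cells, 25 of 34, have 4 or more, and no cell of E18, of type 2 or 3 at P2 or of type 3 at P5 does.

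**Figure D3:**
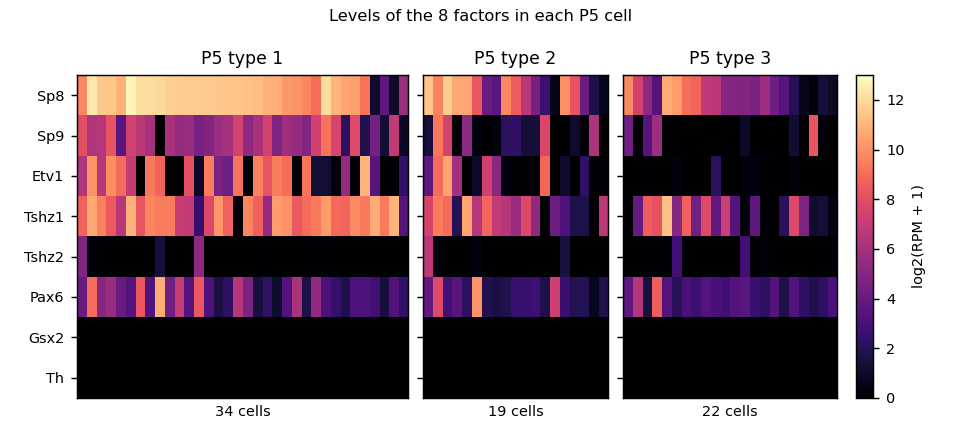
Levels of the 8 factors as log2(RPM + 1) in each P5 cell, columns sorted within a type by the number of factors above 10 RPM and then by Sp8. Type 1 shows Sp8, Sp9 and Tshz1 in nearly all of its 34 cells and Etv1 in 21, Etv1 is dark in all 22 type 3 cells, and Gsx2 and Th are at 0 throughout.

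Pairs were counted within each group, beside the cells that lack the first gene. In type 1 at P5, Sp9 was above 10 RPM in 27 of 32 cells with Sp8 (84.4%, 67.2 to 94.7%), against 3 of 15 in type 2 (20%, 4.33 to 48.1%) and 2 of 16 in type 3 (12.5%, 1.55 to 38.3%). These intervals take the cells of 1 pool as independent and cover counting error only, so they do not test a difference between types. The P2 counts were 9 of 16 for type 1 and 7 of 22 for type 2. By library set, those of type 1 at P5 were 8 of 10 in set B, 11 of 11 in set C and 8 of 11 in set D. Those of type 2 were 1 of 2 in set B, 0 of 2 in set C and 2 of 11 in set D, and those of type 3 were 1 of 2 in set B, 1 of 2 in set C and 0 of 12 in set D. As given earlier, 29 of 34 type 1 cells had Sp9 at P5, while 5 of 19 type 2 cells and 4 of 22 type 3 cells did, so the shares among Sp8 cells follow those of Sp9 in each type. Among the few P5 cells without Sp8, Sp9 was found in 2 of 2, 2 of 4 and 2 of 6, and Sp9 was thus no more frequent with Sp8 than without it in any type at P5. Without Sp8 at P2, 2 of 6 cells of type 1 and 1 of 9 of type 2 had it. Of the cells with Etv1 in type 1 at P5, 20 of 21 had Tshz1 and 20 of 21 had Sp8, while of the 13 without Etv1, 11 had Tshz1 and 12 had Sp8. All 14 type 1 cells with Pax6 at P5 had Sp8, as did 18 of 20 without Pax6. Meis2, a TALE homeodomain factor of LGE-derived neurons, was above 10 RPM in all 21 Etv1 cells and in 12 of the 13 others. Across the 34 type 1 INs at P5 levels of Sp8, Sp9, Etv1, Tshz1 and Pax6 were weakly related, with Pearson r of log2(RPM + 1) between -0.22 (Tshz1 and Pax6) and 0.31 (Sp8 and Pax6), a description over cells of 1 pool. Spearman's rho of Sp8 and Pax6 was 0.43.

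**Figure D4:**
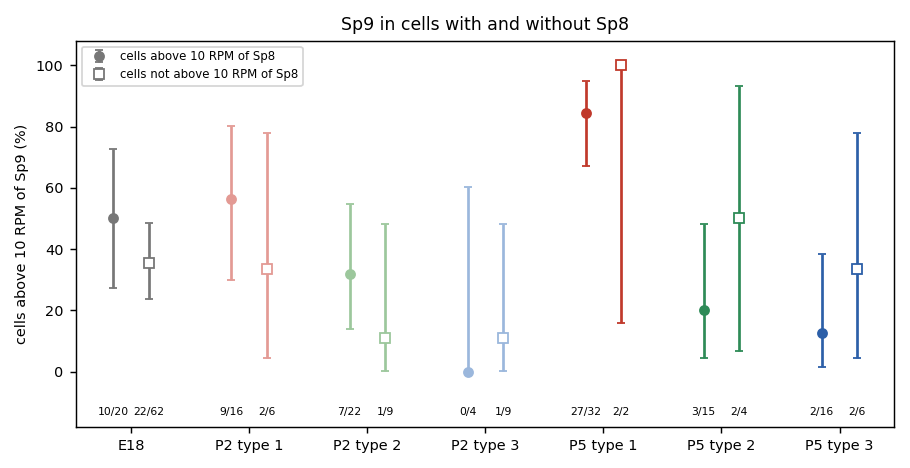
Share of cells above 10 RPM of Sp9 (%) among cells above 10 RPM of Sp8 (filled circles) and among the other cells (open squares) of each group. Bars are exact 95% binomial intervals and the numbers under the points are cells. Type 1 at P5 stands at 27 of 32 and types 2 and 3 at 3 of 15 and 2 of 16.

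Among the P5 INs of types 2 and 3, 3 cells had 4 or more members, all of type 2. A cell of set D had Sp8 at 786 RPM, Sp9 at 632, Etv1 at 508, Tshz1 at 716 and Pax6 at 217.8, with Meis2 at 1234 RPM and Prox1 at 345. Another of set D had Sp8 at 3171 RPM, Sp9 at 171.9, Etv1 at 1476 and Tshz1 at 503, with Meis2 at 1184 RPM, and it is the cell with Gfap at 139.4 RPM. The remaining one, of set C, had Sp8 at 2711 RPM, Tshz1 at 184.5 and Tshz2 at 109.8, with Etv1 and Pax6 just above the threshold and Meis2 at 94.3 RPM. Whether they hold RNA of more than 1 cell was not tested.

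At E18 few cells held more than 2 members. Of the 82 cells, 21 had none above 10 RPM, 35 had 1, 18 had 2 and 8 had 3. The member was found alone in 5 of 20 cells with Sp8, 12 of 32 with Sp9 and 12 of 30 with Tshz1, so most cells with one of these had another member too. Sp8 and Sp9 met in 10 cells, which is 10 of 20 with Sp8 and 10 of 32 with Sp9, and 22 of 62 cells without Sp8 had Sp9. The library sets differed in this, since Sp9 was found in 2 of 10 Sp8 cells of set B, 3 of 4 of set C and 5 of 6 of set D. Sp8 cells differed from the rest in some genes of the eminences and not in others. Of the CGE list, Maf was above 10 RPM in 17 of 20 cells with Sp8 and 52 of 62 without, and Reln in 10 of 20 and 28 of 62. Nr2f1 was in 15 of 20 and 27 of 62, and Npas3 in 16 of 20 and 33 of 62. Lhx6, the factor of MGE-derived INs, was above 10 RPM in 4 of 20 cells with Sp8 and 36 of 62 without. Nr2f2, a factor of CGE-derived INs, was above 10 RPM in 12 of 20 and 13 of 62. Within library sets the Lhx6 counts with and without Sp8 were 3 of 10 and 26 of 38 in set B, 1 of 4 and 2 of 5 in set C, and 0 of 6 and 8 of 19 in set D. Those of Nr2f2 were 7 of 10 and 8 of 38, 2 of 4 and 0 of 5, and 3 of 6 and 5 of 19. The shares were closer for Sp9, with Lhx6 in 15 of 32 cells with Sp9 and 25 of 50 without, and for Tshz1, with 15 of 30 and 25 of 52. Lhx6, Nr2f2 and the other genes of the eminences named here were picked after their values had been seen. Meis2 was above 10 RPM in 4 of the 20 Sp8 cells and 7 of the 62 others, and in 3 of the 7 Etv1 cells and 8 of the 75 others. It too differed between library sets, with 1 of 48 cells in set B, 2 of 9 in set C and 8 of 25 in set D.

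On the deposited t-SNE map, which the authors made from the same counts, each E18 cell was described by the types of its 5 nearest postnatal cells. Type 1 made up the majority around 16 of 82 E18 cells and type 2 around 64. Among cells with Sp8, type 1 was the majority around 9 of 20, and among those without around 7 of 62. For Tshz1 the counts were 3 of 30 with it and 13 of 52 without, so Tshz1 cells lay mainly near type 2. For Sp9 they were 7 of 32 and 9 of 50, and for Etv1 3 of 7 and 13 of 75. The E18 cell with the highest Etv1, with Sp8 at 2301 RPM, Sp9 at 53.8 and Meis2 at 517, had type 1 cells as all 5 neighbours. The cell with the highest Sp8, at 3241 RPM, also did, but its Sp9, Etv1, Tshz1 and Meis2 were all below 1 RPM. E18 cells lie largely in a cloud of their own, which limits what a postnatal neighbour says.

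**Figure D5:**
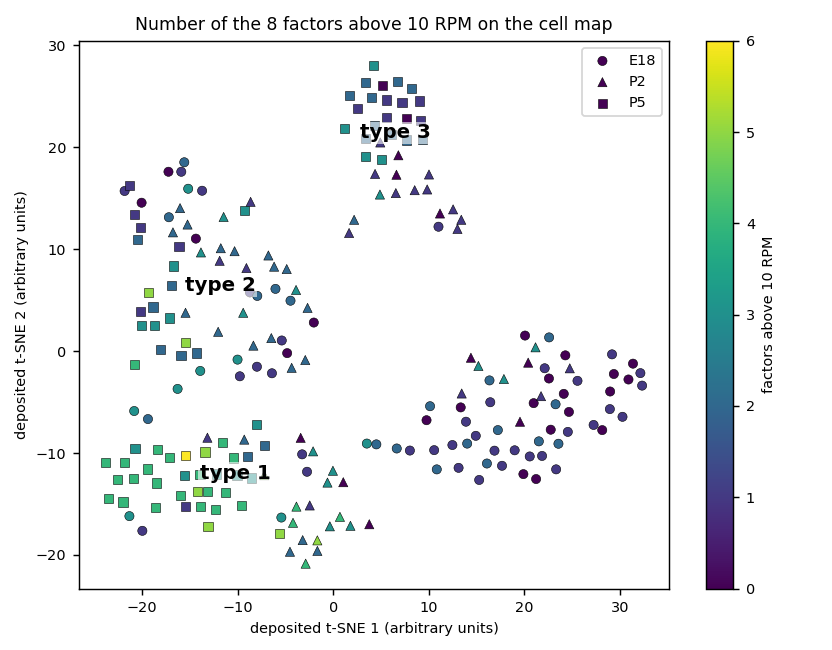
The deposited t-SNE map (arbitrary units) with E18 cells as circles, P2 as triangles and P5 as squares, coloured by the number of the 8 factors above 10 RPM. Type names stand at the median position of each type. Cells with 4 or more factors lie mainly in the lower left among type 1, and the E18 cloud on the right holds cells with 0 to 3.

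The genes most like each member across cells were ranked by Pearson r of log2(RPM + 1), taking the lower of the value over the 66 P2 and the 75 P5 cells, among 7739 genes. For Sp8 they were Nfib (0.42), Slc38a2 (0.39) and Tuba1a (0.37). For Sp9 they included Prokr2 (0.36) and Etv1 (0.34). For Etv1 they were Vcan (0.41), Prokr2 (0.40) and Mpped2 (0.38), and for Tshz1 they were Gm37465 (0.36), Ftl1 (0.33) and Rplp0 (0.33). For Pax6 they were Pou3f2 (0.34), Tle1 (0.33) and ENSMUSG00000097188 (0.33). Prokr2 was among them for Sp9 and Etv1. With Spearman correlation it was at rank 48 for Sp9 and 2 for Etv1, Nfib and Vcan still led the lists of Sp8 and Etv1, while Tle1 went to rank 1031 for Pax6. Cells of all types enter these values, so genes that follow the types rank high, and within the 34 type 1 INs at P5 r of Prokr2 was -0.0015 with Sp9 and 0.01 with Etv1.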

How the data were processed

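Read pairs were aligned by the authors to GRCm38 with TopHat2 and counted on genes with HTSeq 0.6.1 (per the labels). They deposited raw counts of read pairs for 43629 genes in each cell, without normalization, beside a coefficient for converting them to RPM, t-SNE coordinates and a type for each postnatal cell. No molecular identifiers were used, and the strand setting of the counting is not given in the sources used here. Columns of cells left unused numbered 0, and no pair of columns was identical.

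RPM was the count times the coefficient. Intervals are exact at 95%, Poisson for pooled RPM and Clopper-Pearson for shares, and cover counting error only. Where no cell was found, the upper limit is 3 cells over the number examined. For folds, 1 RPM was added to either pooled level before taking log2, and 2-fold counts as higher or lower. SCDE, which the study used, was not run. With 1 pool of animals an age, no count model was tested, so edgeR 4.0.16 and DESeq2 1.42.0 gave library sizes only, as alternatives. Doublets were not called, and the authors checked the chip's capture sites by microscope. Gene symbols came from a GRCm38 annotation, which names 42462 identifiers. Steps were tested on simulated data.

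The members and gene lists were chosen with earlier results of these data known. Genes named are the members, the 3 genes most like each member among those that pass the expression filter at both ages, the 3 largest of a list, and genes that overlap a member. Some genes that meet this rule are not reported here. Single cells and further genes described beside them were picked after their values had been seen. The olfactory bulb, dopamine and CGE lists are described in the text. The others were a check of cell identity, and of them the striatal, excitatory, astrocyte, microglial, endothelial, oligodendrocyte and erythrocyte lists had no gene that passed the filter and was at least 2-fold higher in type 1 at P2 or P5. Below the filter, Mbp, Fezf2 and Penk at P5 and Tbr1 at P2 were over 2-fold higher, each above 10 RPM in 1 type 1 cell. Of genes that passed, the progenitor list had 3 of 4 higher at P2, 1 of them Pax6, and 0 of 5 at P5. The counts were 0 of 2 and 2 of 3 for the cell cycle list and 0 of 5 and 2 of 2 for the MGE list. The GABA list had 1 of 3 and 0 of 4. Over all genes 19.4% were higher at P2 and 23.6% at P5. Those lower at P2 and P5 were 1 and 2 for progenitor, 1 and 0 for cell cycle, 4 and 0 for MGE and 1 and 0 for GABA. Over all genes 31.9% and 23.7% were lower. Alternatives changed the pseudocount, library size, threshold, depth, library set and single cells. Tools were R 4.3.3, matplotlib 3.10.9, scipy 1.17.1, pandas 2.3.3, numpy 2.4.6 and Python 3.11.15.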

Additional observations from a re-analysis of the deposited data

How the results depend on the processing

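Of the 23 folds of 2 or more in the comparisons of types and ages, all but 2 values under the alternatives kept their sign. The 2 were Gsx2 at P2 without its highest type 1 cell (-0.0795) and Tshz1 at P5 within library set B (-0.0413), and the cause was not tested. A kept sign is not a kept size, and most log2 folds moved in size under the alternatives. Most shares of cells and most shares of pairs stayed the same. The count of members at least 2-fold higher in type 1 at P2 went from 5 to 1 without the highest type 1 cell of each member, and to 3 with a call at 4-fold, which also took the P5 count from 4 to 2. In all other settings it was 4 to 6 at P2 and at P5. Leaving out cells of types 2 and 3 with astrocyte genes, chosen after seeing the data, gave 5 at P5. The share of type 1 INs with at least 3 members went from 50% to 90.9% at P2 with a threshold of 1 read pair and to 72.7% above 1 RPM, and from 91.2% to 100% at P5 under both, where Pax6 counts in nearly every cell. Above 50 RPM it was 36.4% at P2 and 79.4% at P5. Within library set C the P5 share was also 100%. Other library sizes moved the median log2 fold of all genes between types by 0.05 to 0.14 at P2 and -0.20 to -0.09 at P5, from P2 to P5 by -0.26 to -0.14 and from E18 to P5 by 0.08 to 0.34. No paired analysis was possible because each age is 1 pool and cell numbers are not shared between groups. Thinning each cell to the depth of the shallowest gave 54.5% and 88.2% for type 1 at P2 and P5. Type 3 at P2, the shallowest group by mapped pairs, stayed at 0 of 13. The 13 to 34 cells a type and 1 pool an age leave wide intervals and no replicate error.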
